A study of Mus musculus with 24 samples.

Results

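Hearts of ovariectomised mice that had swum and carried a miR-21 vector were compared with hearts of ovariectomised mice that had neither treatment, 3 weeks after myocardial infarction. The comparison takes 11 of the 23 libraries of the series that had counts, and the labels list 24. The miR-21 swimming group (5 libraries) had received AAV9 carrying miR-21 and had trained by swimming before the infarction. The control group (6 libraries) had received an empty AAV9 and had not swum. AAV9 is an adeno-associated virus used to carry genes into heart muscle. Every mouse in both groups was ovariectomised, infarcted and given AAV9, so neither group shows the heart without these. The labels name no promoter for the vector, no age or strain, and do not say that each library is a separate mouse. P-values therefore measure the spread between these libraries, which may in part be technical. Members were chosen by group label alone, and all 13501 genes that passed a filter on low counts were tested. A single treatment was given in 2 further groups of 6 libraries each, the miR-21 vector without swimming and the empty vector with swimming. They are used for the spread between replicates and for values set beside the leading genes.

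MiR-21 is a small RNA that pairs with sites in messenger RNAs through its seed, the stretch near its 5′ end, and lowers their level or translation. In the infarcted heart it is best known from fibroblasts, the cells that lay down collagen in the scar. Endurance training is known for raising fatty acid use and for lowering stress gene expression in heart muscle. The mature sequence of the vector's microRNA is given here because the target sites described further on are read from its seed, which is in capitals. It lies on the minus strand of the mouse genome at chr11:86584120-86584141 (RefSeq, GRCm38.p6).
miR-21a-5p: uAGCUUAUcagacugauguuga
The deposited table held 0 rows for the miR-21 gene itself, so overexpression could not be checked in these libraries. Vmp1, an autophagy gene that shares its locus with miR-21, averaged 49.4 ± 11.2 CPM (counts scaled to library size with edgeR's TMM factors, SD, n = 5) in miR-21 swimming hearts and 61.8 ± 13.5 CPM (n = 6) in control hearts. Its log2 fold change was -0.32 ± 0.13 (SE), which did not pass (edgeR adjusted p = 0.162). Leaving out the 3 libraries named in the next paragraph, it was -0.29 and passed (adjusted p = 0.0142), and without miR-21 swimming replicate 2 alone it was -0.46 (adjusted p = 0.00529). Reads from the 2 genes at this locus may not be separable in these counts.

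Libraries held 12839383 to 14546209 counts in miR-21 swimming hearts and 13442909 to 14657630 counts in control hearts. In each group some libraries stood apart. The first principal component, with 58.7% of the variance, put replicate 2 of the miR-21 swimming group at 71.1 and control replicates 2 and 5 at 50.2 and 43.5, and the other 8 libraries at 19.5 or below. Replicate 2 of the miR-21 swimming group held summed marker levels of 1650 CPM for neutrophils, 577 CPM for B cells and 252 CPM for mesothelial cells, the covering layer of the heart. The other 4 libraries of its group held at most 76.0, 9.57 and 17.3 CPM for the same 3 lists, and control libraries at most 434, 147 and 58.4 CPM. The B cell sum covers 6 genes, as the counts lacked Ighm and Ighd of that list. In replicate 2 of the miR-21 swimming group, the B cell genes Cd79a and Ms4a1 gave 18.2 and 8.12 CPM of it. Summed sarcomere genes were lowest there too, at 77725 CPM, with 122954 to 147930 CPM in the other 4 and 95147 to 135116 CPM in control libraries. No marker of these lists was at 0 in all 11 libraries. The numbers in the sample titles form a lower series in control libraries and in replicates 1 and 2 of the miR-21 swimming group, and a higher one in replicates 3 to 5. All libraries with miR-21 alone have numbers of the lower series, and all with swimming alone have numbers of the higher one. Only the miR-21 swimming group holds both series. A fit with a term for the series therefore in effect compares replicates 1 and 2 of that group with the control libraries. The labels do not say what the numbers mark. The 3 libraries that stand apart on the first component were chosen because an earlier analysis of these data found them highest in adipocyte markers. Here their summed adipocyte markers were 623 CPM in miR-21 swimming replicate 2 and 756 and 651 CPM in control replicates 2 and 5, but miR-21 swimming replicate 3 also had 689 CPM.

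**Figure D1:**
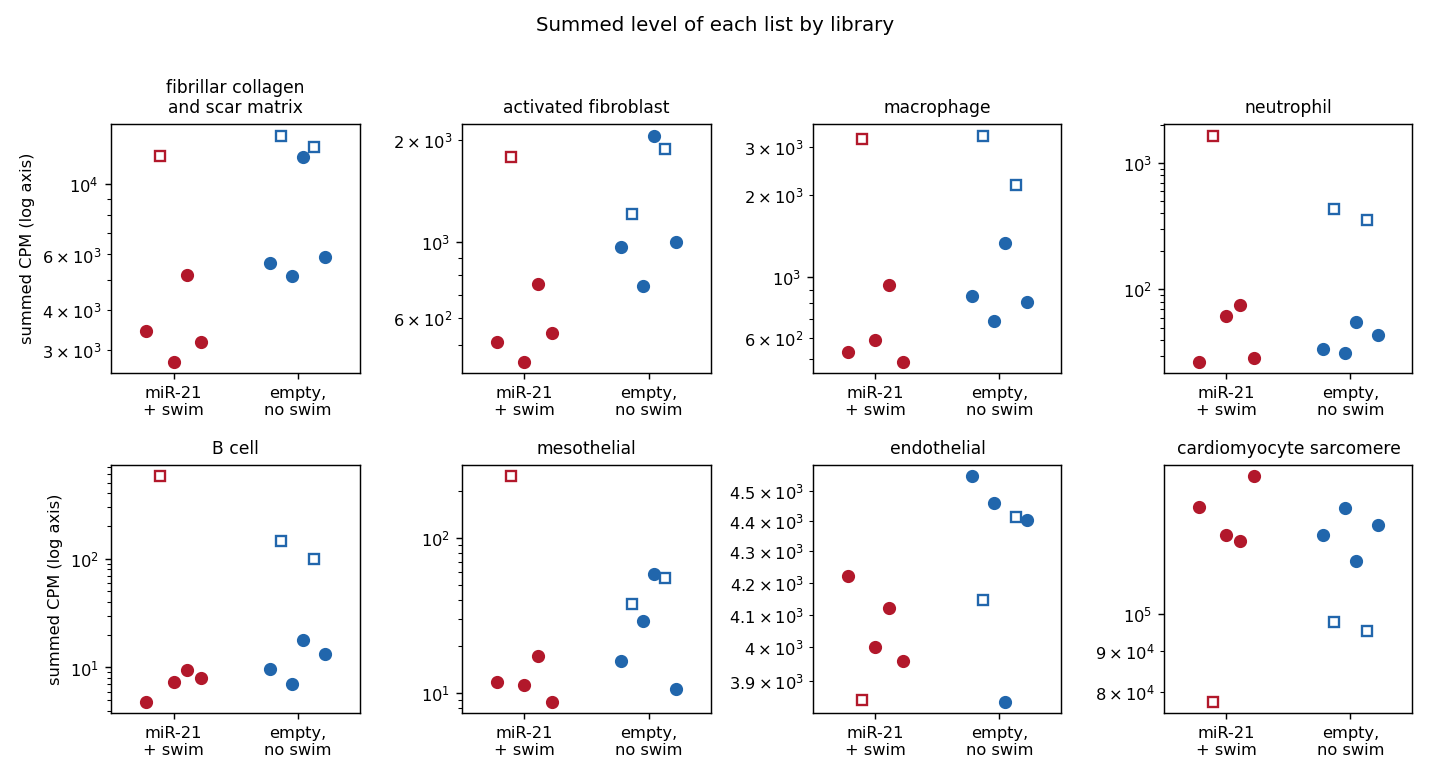
Summed CPM of 8 gene lists in each library (log axis), with miR-21 swimming hearts in red and control hearts in blue. Open squares are miR-21 swimming replicate 2 and control replicates 2 and 5. Neutrophil, B cell and mesothelial sums of miR-21 swimming replicate 2 lie above all 10 other libraries.

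Most of the genes that differed between the groups did so by less than 2-fold. Of 13501 genes, 470 were called at an edgeR adjusted p under 0.05, which is 3.48%. They split into 278 higher (2.06%) and 192 lower (1.42%) in miR-21 swimming hearts, and 2625 genes had an unadjusted p under 0.05. Only 13 of the 278 rose and 14 of the 192 fell by 2-fold or more. The libraries of the 2 groups did not overlap for 255 of all 13501 genes (1.89%), 147 with all miR-21 swimming libraries above (1.09%) and 108 below (0.8%). Of the 470 called genes, 170 were among them. In bulk tissue, fewer cells of a type and less RNA per cell cannot be told apart, and this holds for each result below.

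The number of calls rested on single libraries. Without miR-21 swimming replicate 2 it was 3189, and all 470 genes were among these. Without replicates 1, 3 or 5 of that group it was 210, 152 and 197, and without control replicates 4 or 6 it was 242 and 297. Without all 3 libraries that stand apart, 2151 genes were called, 460 of the 470 among them. With each of the 11 libraries left out in turn, 119 genes were called every time, 71 higher and 48 lower. With only miR-21 swimming replicates 1 and 2, which share the title series of the control libraries, 9 genes were called. With only replicates 3 to 5, of the other series, 1992 were called. In replicates 3 to 5 the treatments and the series cannot be told apart. The first of these fits also holds fewer libraries and includes the replicate 2 that stands apart. A fit of the 11 libraries alone, which draws no spread from the single-treatment groups, called 8 of 13185 genes (0.0607%), 5 higher (0.0379%) and 3 lower (0.0228%), all of them among the 470. In that fit 1706 genes had an unadjusted p under 0.05.

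Pik3ip1, an inhibitor of PI3-kinase growth signalling, stood at 75.4, 68.1, 86.6, 75.2 and 71.1 CPM in miR-21 swimming hearts. Control hearts had 41.9, 43.0, 45.7, 43.5, 43.4 and 47.6 CPM. Every miR-21 swimming library lay above every control library, and Pik3ip1 rose by 0.77 ± 0.08 on the log2 scale (SE, edgeR adjusted p = 2.1e-05). Tmem57, which encodes the neuronal membrane protein macoilin, averaged 57.4 ± 2.46 CPM and 41.5 ± 1.53 CPM in control hearts (SD, n = 5 and 6), a rise of 0.47 ± 0.05. Smarca2, the BRM motor subunit of the SWI/SNF chromatin remodeller, averaged 116 ± 4.42 CPM and 85.0 ± 5.05 CPM in control hearts, a rise of 0.44 ± 0.05 (adjusted p = 5.79e-05). Hdac4, a histone deacetylase known for holding back MEF2-driven growth genes in cardiomyocytes, averaged 38.8 ± 6.80 CPM and 23.7 ± 2.36 CPM in control hearts, a rise of 0.71 ± 0.10 (adjusted p = 0.000407). For Tmem57, Smarca2 and Hdac4 the 2 groups did not overlap either.

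Cdkn1a, which encodes the cell-cycle inhibitor p21 and is a target of p53, had the largest fall among called genes with a mean above 20 CPM. It stood at 23.2, 41.7, 60.6, 28.0 and 36.8 CPM in miR-21 swimming hearts. Control hearts had 126, 94.7, 91.3, 160, 120 and 115 CPM. The highest miR-21 swimming library was below the lowest control library, and the log2 fold change was -1.63 ± 0.24 (SE, edgeR adjusted p = 0.00164). Unc119b, a carrier of lipid-tailed proteins, fell by 0.57 ± 0.08 on the log2 scale, to 27.4 ± 2.43 CPM, against 40.7 ± 4.10 CPM in control hearts. Cdkn1a, Pik3ip1, Tmem57, Smarca2 and Unc119b were called under all 21 alternative settings, the fit of the 11 libraries alone and the fit with only replicates 1 and 2 of the lower title series included. In that last fit Cdkn1a had a log2 fold change of -1.85 and Pik3ip1 one of 0.71. Plpp1 and Plpp3, phosphatases of lipid mediators such as lysophosphatidic acid, fell together by 0.56 ± 0.08 and 0.33 ± 0.05 on the log2 scale. Plpp3 varied little: 114, 116, 106, 114 and 108 CPM in miR-21 swimming hearts, against 138 to 142 CPM in control hearts.

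**Figure D2:**
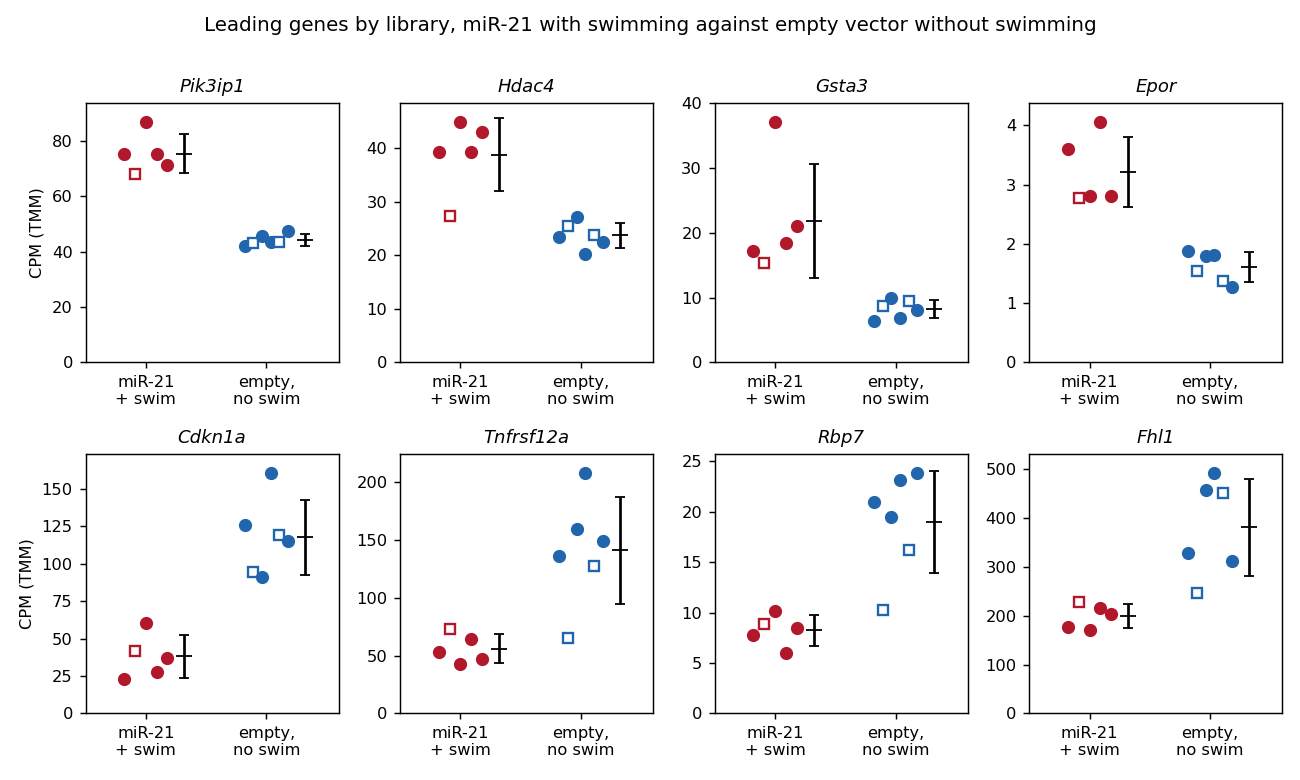
TMM-scaled CPM of 8 genes in each library, miR-21 swimming hearts in red and control hearts in blue, with the mean and SD in black. Open squares mark the 3 libraries that stand apart. Tnfrsf12a is the only panel in which the groups overlap. Hdac4 is lowest and Tnfrsf12a highest of the group in miR-21 swimming replicate 2.

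Several enzymes were among the largest rises. Inmt, an N-methyltransferase of the resting fibroblast list, stood at 24.5, 6.82, 65.4, 12.5 and 23.1 CPM in miR-21 swimming hearts. Control hearts had 4.42, 4.95, 9.07, 3.50, 2.70 and 4.32 CPM. One library of the miR-21 swimming group, replicate 2, lay inside the control range, and the log2 fold change was 2.45 ± 0.49 (SE, edgeR adjusted p = 0.00967). Gsta3, a glutathione S-transferase, rose by 1.39 ± 0.26 with 15.4 to 37.1 CPM in miR-21 swimming hearts, all above the 6.45 to 10.003 CPM of control hearts. Fmo2, a flavin monooxygenase, rose by 1.03 ± 0.23. Nampt, the enzyme that sets the pace of NAD salvage, rose by 0.95 ± 0.18, with 249, 137, 431, 209 and 273 CPM in miR-21 swimming hearts and 104 to 167 CPM in control hearts. Replicate 2 was the lowest and replicate 3 the highest of its group for Inmt, and likewise for Nampt. The Fmo2 call was lost without replicate 3 (adjusted p = 0.0727), and those of Inmt, Gsta3 and Nampt held with each library left out.

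Epor, the erythropoietin receptor, stood at 3.60, 2.77, 2.81, 4.05 and 2.80 CPM in miR-21 swimming hearts and at 1.27 to 1.87 CPM in control hearts, a rise of 0.99 ± 0.19 on the log2 scale. Plekhh1 rose by 1.46 ± 0.26, Stum by 1.61 ± 0.31 and the cadherins Cdh23 and Cdh19 by 1.12 ± 0.20 and 0.94 ± 0.19. Cdh19 marks Schwann cells, and it was the 1 called gene of 8 tested nerve and Schwann cell markers, where 3.48% of all genes were called. Lonrf1, a ring-finger protein, rose by 0.91 ± 0.12 and was called in the fit of the 11 libraries alone (adjusted p = 0.0064). Lrrc75b and Lgi3, at 1.09 ± 0.30 and 1.04 ± 0.26, complete the 12 largest rises. These last 2 calls held in 4 and 6 of the 11 fits with 1 library left out, with adjusted p up to 0.142 and 0.0847.

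Tnfrsf12a, the TWEAK receptor that rises on injured muscle, stood at 52.7, 73.1, 42.6, 64.3 and 47.2 CPM in miR-21 swimming hearts. Control hearts had 136, 65.0, 160, 208, 128 and 149 CPM, so that control replicate 2 alone fell among the miR-21 swimming libraries. The log2 fold change was -1.33 ± 0.23 (SE, edgeR adjusted p = 0.00447). Rbp7, a retinol-binding protein of the endothelium, fell by 1.20 ± 0.19 to 8.24 ± 1.51 CPM, against 19.0 ± 5.05 CPM in control hearts, with no overlap. Tubb2a, a beta-tubulin, fell by 0.95 ± 0.18. Spon2, a secreted matrix protein of the spondin family, had the largest fall at -2.26 ± 0.62 (adjusted p = 0.0447), with 1.58, 9.24, 0.468, 1.99 and 1.07 CPM in miR-21 swimming hearts and 7.29 to 28.6 CPM in control hearts. Its call held in 2 of the 11 fits with 1 library left out, with adjusted p up to 0.124. The other falls were Pi15 (-1.20 ± 0.32), Spsb4 (-1.07 ± 0.24), Foxs1 (-1.07 ± 0.25), Col5a3 (-1.04 ± 0.23), Clmp (-1.01 ± 0.28) and Ddah1 (-0.94 ± 0.25). Of these 6, none held its call in all 11 such fits, and Spsb4 held in 10.

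In the fit of all libraries, the circadian clock list had the largest share of called genes among the 39 lists. This order did not hold in every fit: without the 3 libraries that stand apart, 12 of 21 clock genes and 23 of 34 scar matrix genes were called. The clock turns on a loop in which CLOCK and BMAL1, the product of Arntl, switch on the Per, Cry and Nr1d genes, whose products then hold back CLOCK and BMAL1. REV-ERB and ROR proteins, products of other clock genes, repress and activate Arntl, and the factors Dbp, Tef and Hlf pass the rhythm on to output genes such as metabolic enzymes. Of 21 listed genes, all tested, 7 rose and 2 fell, where 2.06% and 1.42% of all genes were called higher and lower. The median log2 fold change was 0.30, against 0.00 over all 13501 genes. Without the 3 libraries that stand apart, 10 rose and 2 fell, where 8.19% and 7.88% of all genes were called higher and lower. In the fit of the 11 libraries alone, 0 of the 21 passed, where 0.0607% of all genes were called. There Arntl, Clock, Tef, Wee1 and Hlf had edgeR adjusted p from 0.0643 to 0.0718. With a term for the title series 0 of the 21 passed as well, where 0.0815% of all genes were called (0.0296% higher and 0.0518% lower), and the median was 0.26.

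The pair of activators fell. Arntl stood at 2.03, 2.24, 5.93, 2.94 and 2.31 CPM in miR-21 swimming hearts. Control hearts had 8.99, 9.56, 6.50, 11.1, 12.4 and 8.04 CPM. Every miR-21 swimming library was lower than every control library, replicate 3 coming nearest, and the log2 fold change was -1.61 ± 0.33 (SE, edgeR adjusted p = 0.00803). Clock, the partner of BMAL1, fell by 0.46 ± 0.09, with 29.2 to 36.6 CPM in miR-21 swimming hearts and 41.0 to 53.6 CPM in control hearts (adjusted p = 0.00548). Npas2, a relative of Clock that can take its place, had a log2 fold change of -0.32 ± 0.23 (adjusted p = 0.465).

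Repressors and output genes rose. Per3 stood at 135, 95.0, 97.9, 132 and 136 CPM in miR-21 swimming hearts and at 60.9, 58.0, 94.6, 53.6, 59.1 and 80.7 CPM in control hearts. The lowest miR-21 swimming library of Per3 was just above the highest control library, and the log2 fold change was 0.81 ± 0.15 (edgeR adjusted p = 0.00563). Per2 rose by 0.65 ± 0.17 (adjusted p = 0.0364), a call that held in 4 of the 11 fits with 1 library left out. Tef stood at 305, 223, 273, 286 and 307 CPM in miR-21 swimming hearts and at 149 to 219 CPM in control hearts, a rise of 0.68 ± 0.11 (adjusted p = 0.00177). Hlf rose by 0.90 ± 0.17 and Wee1, a cell-cycle kinase under clock control, by 0.74 ± 0.13, both without overlap between groups. Nr1d2, the gene of REV-ERB beta, rose by 0.38 ± 0.10 (adjusted p = 0.0313). The Nr1d2 call held in 5 of the 11 fits with 1 library left out. Per2, Per3 and Nr1d2 lie outside the rule for naming genes and were chosen after their values were seen.

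The remaining 12 clock genes did not pass. Cry1 and Rora came closest, at 0.58 ± 0.17 and 0.28 ± 0.08 (edgeR adjusted p = 0.0541 and 0.0523). Dbp, the output factor with the widest daily swing in many tissues, had 244, 194, 90.8, 206 and 216 CPM in miR-21 swimming hearts and 102 to 222 CPM in control hearts. In the miR-21 swimming group, replicate 3 was the lowest of all 11 libraries for Dbp, for Nr1d1 (63.2 CPM) and for Ciart (8.43 CPM), and the highest of its group for Arntl. The labels give no time of day at which hearts were taken. With miR-21 swimming replicates 1 and 2, which share the title series of the control libraries, Arntl had a log2 fold change of -2.13 (adjusted p = 0.0788). With replicates 3 to 5, which are of the other series, Arntl had -1.32 (adjusted p = 0.0221).

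**Figure D3:**
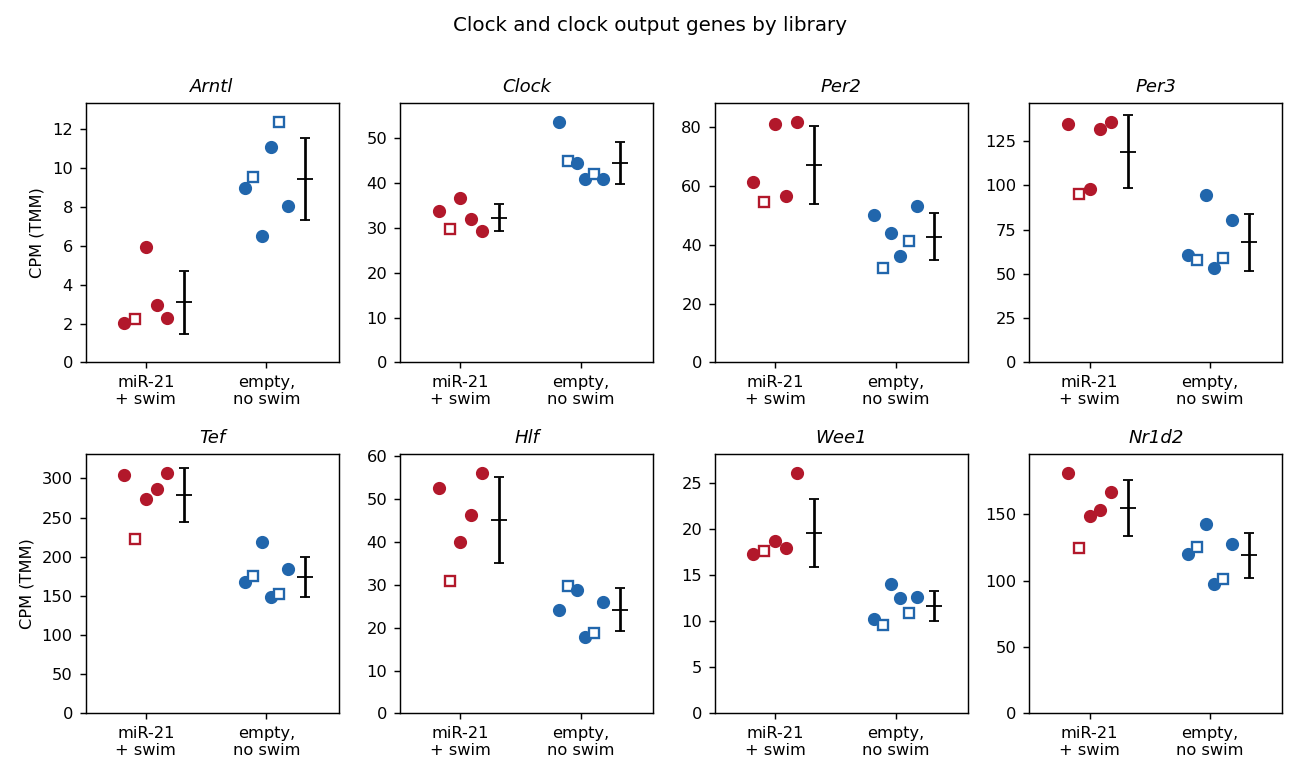
TMM-scaled CPM of 8 of the 9 called clock genes in each library, miR-21 swimming hearts in red and control hearts in blue, with the mean and SD in black. Open squares mark the 3 libraries that stand apart. Arntl and Clock lie lower in miR-21 swimming hearts, and Per2, Per3, Tef, Hlf and Wee1 lie higher, with no overlap between groups.

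Promoter sequence was searched for the known clock elements, since these genes differed together. The 3 words, on both strands, were the E-box CACGTG, bound by CLOCK and BMAL1, the D-box TTATGTAA or TTACGTAA, bound by Dbp, Tef and Hlf, and the ROR element TAGGTCA. In 32851 RefSeq promoter windows of 250 bases before and 50 after a start (GRCm38.p6), the E-box was in 7.15%, the D-box in 1.06% and the ROR element in 2.61%. Counted per gene, over 10320 tested genes with a window, the shares were 11.5%, 0.853% and 2.31%. Among the 9 called clock genes, 6 had windows, and each word was found for 1 of the 6. For each of these genes 1 window with a match is given below, with the matches in capitals. Arntl (chr7:113207261-113207560, plus strand) held a ROR element 30 bases after its start, Per3 (chr4:151044616-151044915, minus strand) held 2 D-boxes, and Tef (chr15:81802423-81802722, plus strand) held an E-box. A second window of Tef (chr15:81811164-81811463, plus strand) also held an E-box and is not printed.
Arntl: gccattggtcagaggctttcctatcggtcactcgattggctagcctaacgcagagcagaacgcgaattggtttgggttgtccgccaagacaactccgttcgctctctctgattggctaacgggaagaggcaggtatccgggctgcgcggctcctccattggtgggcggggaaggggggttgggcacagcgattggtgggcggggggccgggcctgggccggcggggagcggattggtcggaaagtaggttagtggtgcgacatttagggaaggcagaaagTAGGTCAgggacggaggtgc
Per3: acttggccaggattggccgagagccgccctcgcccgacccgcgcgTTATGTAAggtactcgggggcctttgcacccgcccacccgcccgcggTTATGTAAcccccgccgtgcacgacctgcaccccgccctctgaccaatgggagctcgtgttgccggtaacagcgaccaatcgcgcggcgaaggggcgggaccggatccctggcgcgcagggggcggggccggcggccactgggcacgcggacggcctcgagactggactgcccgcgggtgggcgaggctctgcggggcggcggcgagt
Tef: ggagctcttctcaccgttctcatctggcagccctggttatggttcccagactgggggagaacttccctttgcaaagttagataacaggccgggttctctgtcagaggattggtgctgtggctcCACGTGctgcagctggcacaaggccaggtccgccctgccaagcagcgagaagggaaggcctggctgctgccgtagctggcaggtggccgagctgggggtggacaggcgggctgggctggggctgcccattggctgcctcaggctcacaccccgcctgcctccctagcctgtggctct
A match is a description of these letters and not a shown binding site.

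Scar matrix genes lay lower in miR-21 swimming hearts as a list, but few passed the test. All 35 genes of the fibrillar collagen and scar matrix list had a negative log2 fold change, with a median of -0.94, against 0.00 over all genes. Of the 35, 2 fell and 0 rose, where 1.42% of all genes were called lower. Once the title series was a term of the fit, 31 were negative and 4 positive, the median was -0.32, and 0 passed. Only 0.0815% of all genes were called there, so 0 of 35 says little about this list. That fit in effect sets miR-21 swimming replicates 1 and 2 against control libraries. Serpinh1, the collagen chaperone HSP47, stood at 259, 350, 213, 300 and 266 CPM in miR-21 swimming hearts and at 379 to 539 CPM in control hearts, with no overlap, and fell by 0.66 ± 0.11 on the log2 scale (SE, edgeR adjusted p = 0.00334). Col5a3, a chain of collagen V, fell by 1.04 ± 0.23 (adjusted p = 0.017), a call lost without miR-21 swimming replicates 3 or 5, with adjusted p up to 0.0612.

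The major collagens varied too widely to pass. Col1a1 had 119, 701, 60.1, 225 and 96.9 CPM in miR-21 swimming hearts and 226, 1220, 249, 774, 827 and 271 CPM in control hearts. Replicate 2 alone of the miR-21 swimming group lay inside the control range, and the log2 fold change was -1.31 ± 0.56 (edgeR adjusted p = 0.198). Col3a1 had a log2 fold change of -1.42 ± 0.62 (adjusted p = 0.214). Without the 3 libraries that stand apart, 23 of 34 matrix genes fell and 0 rose, where 7.88% of all genes were called lower. Those 3 libraries held the highest summed matrix levels of all 11. They had 12218 CPM in miR-21 swimming replicate 2, and 14210 and 13092 CPM in control replicates 2 and 5. Leaving them out narrows the spread of this list within each group, so that fit is no independent check of it. Without miR-21 swimming replicate 2 alone, 32 of 35 fell and 0 rose, where 11.2% of all genes were called lower. That replicate was singled out by its values here. It held the highest summed matrix level of its group, 12218 CPM, so leaving it out favours falls. Col1a1 and Col3a1, named after their values were seen, then had log2 fold changes of -1.60 and -1.59 without the 3 libraries (adjusted p = 0.0304 and 0.0493). Beside these counts stand the macrophage markers, with a summed level of 489 to 3225 CPM in miR-21 swimming hearts and 690 to 3308 CPM in control hearts, highest in the same replicate 2 and in control replicate 2. Their part in the matrix result was not tested.

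Genes of activated fibroblasts followed the same order. Of 22 tested, 1 fell and 0 rose, where 1.42% of all genes were called lower. A negative log2 fold change was found for 21 of the 22, and the median was -0.74. In the fit with the title series 14 were negative, the median was -0.11, and 0 passed, where 0.0815% of all genes were called. The called gene was Ddah1, which breaks down a natural inhibitor of nitric oxide synthase, and its call held in 5 of the 11 fits with 1 library left out. Postn, the periostin gene that marks activated fibroblasts, had 58.2, 524, 56.1, 170 and 61.7 CPM in miR-21 swimming hearts and 216, 301, 152, 496, 466 and 221 CPM in control hearts. Replicate 2 had the highest Postn of all 11 libraries, and 3 of the other 4 miR-21 swimming libraries lay below every control library. The log2 fold change of Postn was -0.82 ± 0.53 (edgeR adjusted p = 0.416), and -1.65 without the 3 libraries (adjusted p = 0.0336). Without those 3 libraries 7 of the 22 fell, and without replicate 2 alone 17 fell, with 0 higher in both. Of all genes, 7.88% and 11.2% were called lower in these fits. Replicate 2 also held the highest summed level of this list in its group, so leaving it out favours falls.

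Resting fibroblast genes did not share that order. Of 18, 1 rose, which was Inmt, and 0 fell, with a median of -0.10. Over all genes, 2.06% were called higher and 1.42% lower in the fit of all libraries. Matrix proteases and inhibitors had 1 fall of 22, the protease Adamts9 at -0.57 ± 0.12 (edgeR adjusted p = 0.0147, lost without miR-21 swimming replicate 3 at 0.058), and a median of -0.59. The 11 tested genes of cartilage-like scar matrix all had negative values, with a median of -0.88, and 0 passed. Signalling by TGF-beta and BMP had 1 fall of 29, Skil, a repressor of SMAD signalling, at -0.47 ± 0.12. Without the 3 libraries, 9 of 22 proteases and inhibitors and 6 of 28 TGF-beta and BMP genes fell, and 0 and 3 rose, where 7.88% of all genes fell and 8.19% rose. With a term for the title series, list medians were -0.11 for proteases and inhibitors, -0.42 for cartilage-like matrix and -0.05 for TGF-beta and BMP. Of their genes 0 passed in that fit, where 0.0815% of all genes were called.

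Stress genes of the cardiomyocyte lay lower. All 17 tested members of the list had a negative log2 fold change, with a median of -0.56. Of these, 2 fell, where 1.42% of all genes were called lower. In the title series fit 12 were negative and 5 positive, the median was -0.45, and 0 passed, where 0.0815% of all genes were called. Fhl1, a stretch sensor of the sarcomere, stood at 178, 229, 170, 216 and 203 CPM in miR-21 swimming hearts. Control hearts had 329, 245, 458, 491, 451 and 311 CPM. The groups did not overlap, and Fhl1 fell by 0.94 ± 0.17 on the log2 scale (SE, edgeR adjusted p = 0.00447). Rcan1, a feedback inhibitor and readout of calcineurin, fell by 0.68 ± 0.16 (adjusted p = 0.0191), a call that held in 8 of the 11 fits with 1 library left out, lost without miR-21 swimming replicates 1, 3 or 5 with adjusted p up to 0.0611.

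The natriuretic peptides and fetal genes did not pass. Nppb, the gene of brain natriuretic peptide, had 280, 413, 190, 318 and 186 CPM in miR-21 swimming hearts and 448, 114, 390, 908, 549 and 550 CPM in control hearts. Control replicate 2 was the lowest of all 11 libraries, and the other 5 control libraries overlapped only with miR-21 swimming replicate 2. The log2 fold change of Nppb was -0.83 ± 0.37 (edgeR adjusted p = 0.219). Acta1, skeletal actin, had -1.34 ± 0.51 (adjusted p = 0.152), Nppa -0.87 ± 0.74 and Myh7 -0.30 ± 0.70. Without the 3 libraries, 8 of the 17 stress genes fell and 0 rose, where 7.88% of all genes were called lower. Nppb then had -1.24 (adjusted p = 0.0249), with the highest miR-21 swimming library and the lowest control library for this gene left out. Without replicate 2 of the miR-21 swimming group alone, 6 fell, where 11.2% of all genes were called lower.

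Contractile and electrical genes moved little in comparison. Of 20 sarcomere genes, Lmod2, which lengthens thin filaments, rose by 0.42 ± 0.10 (edgeR adjusted p = 0.0217), lost without miR-21 swimming replicates 1, 3 or 5 with adjusted p up to 0.0765, and 0 fell. The list's median was 0.10, and 2.06% of all genes were called higher and 1.42% lower. None of 26 calcium handling and ion channel genes and none of 30 fatty acid genes passed in the fit of all libraries, with medians of 0.16 and 0.11. Kcnip2, the subunit of the transient outward potassium current, had 230, 84.6, 199, 196 and 228 CPM in miR-21 swimming hearts and 78.9 to 154 CPM in control hearts, with a log2 fold change of 0.61 ± 0.20 (adjusted p = 0.0934). All of its miR-21 swimming libraries but replicate 2 were above every control library. Without the 3 libraries, 7 of 26 channel and 11 of 30 fatty acid genes rose and 0 fell, beside 8.19% of all genes. Hadh, an enzyme of fatty acid oxidation named after its values were seen, then had 0.46 (adjusted p = 0.0012). None of 38 respiratory chain genes passed, and their median was 0.00. A term for the title series in effect leaves miR-21 swimming replicates 1 and 2 against control libraries. With it the fatty acid list turned direction, with 27 of 30 negative and a median of -0.15. In that fit 37 of 38 respiratory chain genes were negative (median -0.23), the sarcomere median was -0.07 and the channel median was 0.01. There 0 genes of these 4 lists passed, where 0.0815% of all genes were called.

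**Figure D4:**
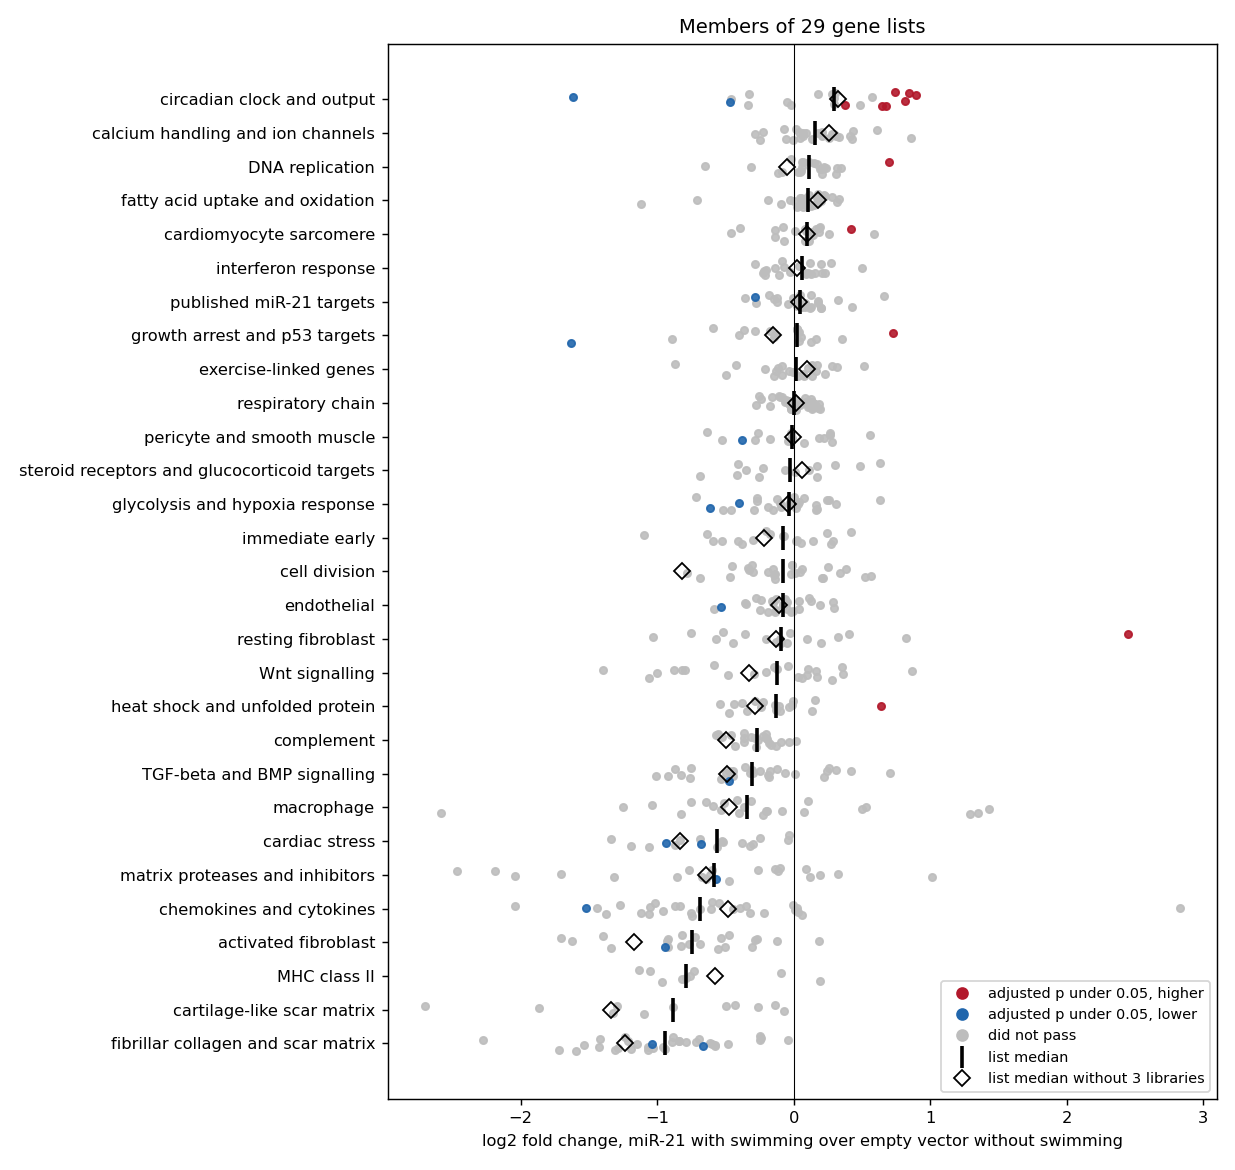
Log2 fold changes of the tested members of 29 gene lists, miR-21 swimming over control. Red and blue points passed an edgeR adjusted p under 0.05 as higher or lower, grey ones did not, vertical bars are list medians and diamonds are medians without the 3 libraries that stand apart. Clock genes hold the most coloured points, and scar matrix lies at a median of -0.94 with 2 blue points.

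Vascular genes were mostly level. Of 29 endothelial genes 1 fell and 0 rose, where 1.42% of all genes were called lower and 2.06% higher. A negative log2 fold change was found for 22 of the 29 and a positive one for 7, with a median of -0.08. Sox18, a transcription factor of vessel and lymphatic endothelium, fell by 0.53 ± 0.14 (edgeR adjusted p = 0.0308), with 42.8 to 65.0 CPM in miR-21 swimming hearts and 60.6 to 95.5 CPM in control hearts. Sox7, the relative of Sox18 that the series' title names with miR-21, had 35.1, 21.2, 20.3, 33.9 and 27.0 CPM in miR-21 swimming hearts and 37.3, 23.1, 42.2, 22.8, 31.8 and 42.6 CPM in control hearts. The 2 groups overlapped over most of their range, and the log2 fold change of Sox7 was -0.28 ± 0.19 (adjusted p = 0.452), with 0 of the 21 alternatives passing. Of 16 pericyte and smooth muscle genes Mcam alone fell, by 0.38 ± 0.10 (adjusted p = 0.0411). Calls for Sox18 and Mcam held in 7 and 3 of the 11 fits with 1 library left out.

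Few genes of the other lists passed, where 2.06% of all genes were called higher and 1.42% lower. In the growth arrest list Cdkn1a fell and Sesn1, a sestrin that restrains mTOR signalling, rose by 0.73 ± 0.16 (edgeR adjusted p = 0.0155), lost without miR-21 swimming replicate 3 at 0.0608. Pole, the catalytic subunit of DNA polymerase epsilon, was the 1 rise among 23 replication genes, at 0.70 ± 0.12 and 4.82 to 6.004 CPM in miR-21 swimming hearts against 2.76 to 4.07 CPM in control hearts. In glycolysis and hypoxia P4ha1, a collagen prolyl hydroxylase, and Pgam1 fell by 0.61 ± 0.12 and 0.40 ± 0.10 of 27 tested. Herpud1, of the unfolded protein response, rose by 0.64 ± 0.17, and Lif, a cytokine of the IL-6 family, fell by 1.52 ± 0.41. Lif was near the floor, with means of 0.30 CPM in miR-21 swimming hearts and 0.91 CPM in control hearts. It was not tested in the fit of the 11 libraries alone. Calls for Skil, Pgam1, Herpud1 and Lif held in 4, 4, 5 and 3 of the 11 fits with 1 library left out, with adjusted p up to 0.153. Of the 24 macrophage, 22 interferon, 22 complement, 9 MHC class II, 23 Wnt, 26 cell division, 24 exercise-linked, 19 immediate early and 14 steroid-linked genes tested, 0 passed. Negative log2 fold changes were nonetheless found for 17 of 24 macrophage, 21 of 22 complement and 8 of 9 MHC class II genes. Their medians were -0.34, -0.27 and -0.79. Chemokines and cytokines had 24 of 29 negative and a median of -0.69, and interferon genes 10 of 22 and a median of 0.06. In the fit that leaves out the 3 libraries, 2 macrophage, 2 complement, 3 Wnt, 2 cell division and 3 immediate early genes fell, where 7.88% of all genes fell, so that the shares of the macrophage, complement and cell division lists were near that of all genes.

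Genes published as miR-21 targets were not lower as a group. Of 27 tested, 1 fell and 0 rose, where 1.42% of all genes were called lower and 2.06% higher. Of the 27, 9 had a negative log2 fold change, and the median was 0.05. Stat3, a cytokine-activated transcription factor, stood at 164, 210, 140, 191 and 163 CPM in miR-21 swimming hearts and at 204 to 231 CPM in control hearts, and fell by 0.29 ± 0.08 (edgeR adjusted p = 0.0369). Replicate 2 alone of the miR-21 swimming group reached the control range, and the call held in 3 of the 11 fits with 1 library left out. The longest 3′ untranslated region of 21 of these 27 genes held the 7-base match to the seed, ATAAGCT. The sites of the 1 called gene and of Pdcd4, the target most often used to read out miR-21, are given with that match in capitals, from the GENCODE transcripts of GRCm38. They start at base 1581 and 2279 of the region for Stat3 (chromosome 11) and at base 289 for Pdcd4 (chromosome 19).
Stat3, first site: gttatacaATAAGCTgaactta
Stat3, second site: ggagtcagATAAGCTccctaat
Pdcd4: gtgttctgATAAGCTactttct
Pdcd4 had 17.5, 33.2, 18.7, 21.1 and 20.9 CPM in miR-21 swimming hearts and 15.9 to 28.5 CPM in control hearts, with a log2 fold change of 0.18 ± 0.15 (adjusted p = 0.55). Over all 12991 genes searched, 1074 (8.27%) held the word. Of these, 2.14% were higher and 1.02% lower, with a median of 0.02, and of the 11917 without it 2.09% were higher and 1.48% lower, with a median of 0.00.

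The single-treatment groups were set beside the leading genes. These comparisons use the same 6 control libraries, so their values are given side by side and no overlap is counted. Swimming alone against the control also sets the higher title series against the lower one, so the treatment and the series cannot be told apart there. Against the control, 304 genes (2.25%) were called with the miR-21 vector alone, 0.881% higher and 1.37% lower. With swimming alone 1007 (7.46%) were called, 4.18% higher and 3.28% lower. Pik3ip1 had log2 fold changes of 0.77 ± 0.08 with both treatments, 0.43 ± 0.08 with miR-21 alone and 0.37 ± 0.08 with swimming alone (SE). Cdkn1a had -1.63 ± 0.24, -1.12 ± 0.22 and -1.36 ± 0.22 in the same order, and Arntl -1.61 ± 0.33, -1.41 ± 0.30 and -0.97 ± 0.30. All 3 genes passed in each of the 3 comparisons (edgeR adjusted p up to 0.0484).

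Some genes had a value near 0 in a single-treatment group. Rbp7 had -1.20 ± 0.19 with both treatments, -0.35 ± 0.17 with miR-21 alone and -0.22 ± 0.17 with swimming alone, and the last 2 did not pass (edgeR adjusted p = 0.179 and 0.464). Fmo2 had 1.03 ± 0.23, 0.52 ± 0.22 and -0.14 ± 0.23, and Col5a3 had -1.04 ± 0.23, -0.92 ± 0.22 and 0.18 ± 0.21 in the same order. Set directly against swimming alone, Rbp7, Fmo2 and Col5a3 differed by -0.98 ± 0.19, 1.17 ± 0.23 and -1.22 ± 0.23 (adjusted p = 0.00404, 0.00669 and 0.00458). Against miR-21 alone, 23 of all 13501 genes (0.17%) were called, 0.0518% higher and 0.119% lower. Against swimming alone 618 (4.58%) were called, 1.87% higher and 2.71% lower.

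**Figure D5:**
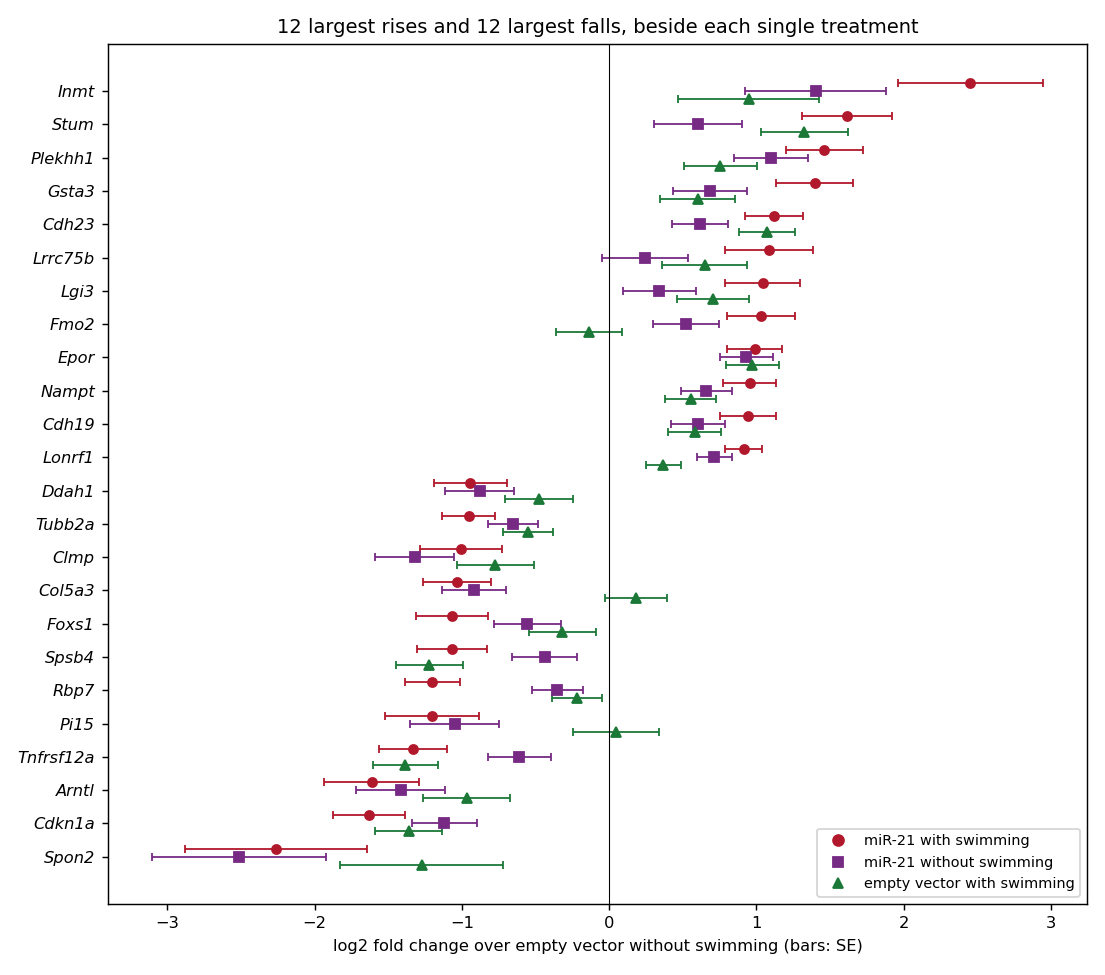
Log2 fold changes over the control group with SE for the 12 largest rises and 12 largest falls, with both treatments (red circles), the miR-21 vector alone (purple squares) and swimming alone (green triangles). The 3 comparisons share the 6 control libraries. Fmo2, Pi15 and Col5a3 lie near 0 with swimming alone.

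Whether the combined change differed from the sum of the 2 single changes was tested for every gene, and 73 (0.541%) passed. The sum holds the change with swimming alone, which cannot be told apart from the title series. Of the genes also called between miR-21 swimming and control hearts, the 5 with the smallest p were Akap12, Meox2, Slc35e4, Wee1 and Dmtn. Wee1 had 0.74 ± 0.13 with both treatments, 0.66 ± 0.13 with miR-21 alone and 0.94 ± 0.13 with swimming alone, which is 0.86 below the sum (SE 0.18, edgeR adjusted p = 0.0291). Akap12, a kinase scaffold, had 0.26 ± 0.06, 0.19 ± 0.06 and 0.53 ± 0.06, and Meox2, a homeobox factor of heart endothelium, had 0.39 ± 0.10, 0.39 ± 0.09 and 0.69 ± 0.09 in the same order. Slc35e4 had -0.62 ± 0.11, -0.58 ± 0.10 and -0.76 ± 0.10. In all 5, the combined change was smaller than the sum of the single changes. These genes were picked by their p, and the same 6 control libraries enter every one of these changes. No conclusion is drawn from the shared direction. For Cdkn1a and Arntl the same difference was 0.85 ± 0.32 and 0.77 ± 0.44 and did not pass (adjusted p = 0.146 and 0.31).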

How the data were processed

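Hearts were extracted in TRIzol, and a stranded mRNA kit was used for sequencing libraries, per the labels' protocols. The authors deposited raw counts, which are whole numbers for each gene in each library. The build was GRCm39 per the submitters' processing notes. The aligner and the read counter: not given in the sources used here. The FPKM table, the authors' tables of other comparisons and 69 further per-sample columns were not used. The sixth sample with both treatments was not analysed here.

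All 23 libraries entered 1 edgeR quasi-likelihood model (filterByExpr, TMM, robust dispersion), which left 13501 of 21878 genes. A call is an adjusted p (Benjamini-Hochberg) under 0.05. The code was tested on simulated data. It ran in Python 3.11.15 with matplotlib 3.10.9 and in R 4.3.3, where DESeq2 was version 1.42.0, limma 3.58.1 and edgeR 4.0.16. CPM is TMM-scaled, and a list's summed level is the sum of its genes' CPM. No pair of libraries had identical counts (0 of 55), and Pearson correlations between replicates across genes were 0.912 to 0.989 with miR-21 and swimming and 0.953 to 0.990 in controls.

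The 39 gene lists (755 genes, 703 tested), members and alternatives were chosen with earlier results of these data known. Genes named are Sox7 and Vmp1, the 12 largest rises and falls among called genes averaging 1 CPM or more with all 5 miR-21 swimming libraries on 1 side of the control mean, the 10 of smallest p, up to 4 called genes per list (2 as values where none was called) and 6 that differ from the sum of single effects. Unnamed loci and clone names were passed over. For 2 genes that enter the counts, the results are not reported here. List members beyond this rule were chosen after their values were seen.

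Alternatives were RLE scaling, no filter, a stricter filter (mean of 1 CPM), limma voom with quality weights, DESeq2, the 11 libraries alone, the title number series as a covariate, each series of miR-21 swimming libraries alone, no libraries that stand apart, and each of the 11 left out.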

Additional observations from a re-analysis of the deposited data

Results flagged for a closer look

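Single libraries were set against the rest of their group by Dixon's test, for the named genes and the summed marker lists. For independent, normally spread values chance flags about 1 in 20 groups, and 36 of 232 stood out here, 24 of them for replicate 2 of the miR-21 swimming group. The tests share the same 11 libraries and genes that vary together, so the 36 cannot be judged against that rate.

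In that replicate 2, summed marker levels were 12200 CPM for scar matrix, 1780 for activated fibroblasts, 3220 for macrophages, 252 for mesothelial cells, 1650 for neutrophils, 32.2 for T and NK cells, 577 for B cells and 61.6 for nerve and Schwann cells, each the highest of its group. Single genes highest there were Ngp at 241 CPM, Retnlg at 52.2, Cd79a at 18.2, Ms4a1 at 8.12, Cd3d at 2, Lrrn4 at 43.3, Upk1b at 19.8, Spp1 at 20.1, Timd4 at 19.8, Cd55 at 65.2, Serping1 at 549, Spon2 at 9.24 and Ddah1 at 12.8. Lowest there were Cdh23 at 11.8 CPM, Kcnip2 at 84.6 and Lmod2 at 546. For Cdh23 the other 4 libraries of the group held 23.1 to 26.5 CPM. The part of these markers in the comparison was not tested beyond the fits without this library.

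In the miR-21 swimming group, replicate 3 was highest for Gsta3 (37.1 CPM), Cdh19 (11.5 CPM), Arntl (5.93 CPM) and Pdk4 (449 CPM). Replicate 5 was highest for Wee1 (26 CPM) and lowest for Ifit2 (22.2 CPM). In the control group, replicate 2 was highest for Vmp1 (88.3 CPM) and T and NK cell markers (47.3 CPM), replicate 3 for Inmt (9.07 CPM) and Prickle3 (34.9 CPM), and replicate 1 for Pdk4 (383 CPM) and Clock (53.6 CPM).

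The combined change differed from the sum of the single changes for Akap12 (-0.46 on the log2 scale), Meox2 (-0.69), Slc35e4 (0.72), Wee1 (-0.86) and Dmtn (0.81), each with an edgeR adjusted p under 0.05 over all genes. Swimming alone, part of that sum, cannot be told apart from the title number series.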

How the results depend on the processing

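The 470 calls (278 higher, 192 lower) were nearly unmoved by RLE scaling (474, 468 of them shared) and by a filter at a mean of 1 CPM (507). Without a filter 385 were called, 126 of them lower. DESeq2 called 866 (481 higher, 385 lower), limma voom with quality weights 2056 (1060 and 996), the fit of the 11 libraries alone 8 (5 and 3) and the fit with title number series as a covariate 11 (4 and 7). With miR-21 swimming replicates 1 and 2 alone 9 were called (3 and 6), with replicates 3 to 5 alone 1992 (1120 and 872), and without the 3 libraries that stand apart 2151 (1096 and 1055). Leaving out 1 library at a time gave 152 to 3189 calls, 88 to 1667 higher and 64 to 1522 lower. The difference from the sum of the single effects had 73 calls, 719 with DESeq2 and 19 to 358 with 1 library left out.

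For the 101 named genes under these settings, 1715 values kept their direction and side of the threshold, 286 lost the call, 67 gained one and 28 changed sign. These 28 came from 10 genes, none called in the fit of all libraries, and 27 were not called under the alternative either. The exception was Upk1b, a mesothelial marker, at 1.44 in the fit of all libraries and from -3.23 without miR-21 swimming replicate 2 to 1.76 with 1 other library left out. No scaling moved the median of all genes by more than 0.1. No paired analysis was possible because the labels give no replicate numbers that the groups share. When title series was a covariate, medians of the fatty acid, sarcomere and respiratory chain lists were below 0. That fit in effect sets miR-21 swimming replicates 1 and 2 against control libraries. It and the fit with only those replicates gave nearly the same values, for Cdkn1a -1.85 in both. These 2 of the 21 alternatives are therefore close to 1 check. The part of each of these libraries in the medians was not tested. With 5 and 6 libraries, genes that vary as widely as the collagens cannot be placed, and p-values measure the spread between these libraries.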
